A study of Mus musculus with 47 samples.

Results

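Muscle stem cells, also called satellite cells, were compared between mice on a high-fat diet and mice on a control diet at ZT12, a single time of day. The comparison took all samples labelled for that time, 4 high-fat and 4 control mice, which are 8 of the 47 mice of the study. Every mouse was a wild-type C57B6/J female that started its diet at 8 weeks of age, ate freely for 7 weeks and was 15 weeks old at collection. The labels name the second diet as the control matching the high-fat diet, and the composition of neither is given in the sources used here. All 8 mice were collected on 1 day, so the diet difference does not run across collection days. The other 39 mice came from ZT0, ZT4, ZT8, ZT16 and ZT20, with 4 mice per diet and time except 3 high-fat mice at ZT16. Each mouse was measured on 1 Affymetrix array, after amplification of cDNA from 25 ng of total RNA. The titles call the samples biological replicates, and p-values measure the spread between these mice.

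Satellite cells lie between the muscle fibre and its basement membrane. Most are quiescent in resting muscle, with little cytoplasm and low synthesis of RNA and protein. They leave this state on injury to divide and to form new fibre nuclei. By the usual convention ZT0 marks the onset of light, and mice are mainly active and feed mostly in the dark. The light schedule is not stated in the labels. A diet rich in fat is known to raise circulating lipids and to change daily feeding behaviour in this strain.

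Markers of the labelled cell type were present. All 9 listed satellite cell markers lay above the expression floor (a mean of 5.80 on the log2 scale over all arrays, under which genes were not tested). Pax7, the transcription factor that defines satellite cells, had 11.17, 11.03, 11.12 and 11.23 in high-fat mice 1 to 4, against 10.93, 10.87, 10.98 and 10.98 in control mice 1 to 4. The groups did not overlap, although the difference of 0.20 ± 0.08 did not pass the test (SE, limma adjusted p = 0.212). The mean log2 value of the 9 markers was 10.10 to 10.41 in high-fat mice and 10.01 to 10.09 in control mice. In each mouse the array correlated with the others of its group at a mean of 0.974 to 0.977 (high-fat) and 0.977 to 0.980 (control) over 10258 tested genes. Each array measures the RNA of many cells together, so fewer cells of a type and less RNA per cell cannot be told apart.

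Diet changed 88 of the 10258 genes at ZT12, which is 0.858% of those tested (limma adjusted p under 0.05 after Benjamini-Hochberg adjustment). Of these, 48 were higher on the high-fat diet (0.468%) and 40 were lower (0.39%). The changes were small, with a median size of 0.59 on the log2 scale, and 8 genes passed a 2-fold change, 6 of them higher and 2 lower. The groups of 4 did not overlap for 78 of the 88, and for 7.47% of all tested genes. By direction these were 44 of the 48 higher genes, against 4.19% of all tested genes that were higher without overlap, and 34 of the 40 lower genes, against 3.28%. At an unadjusted p under 0.05 the counts were 789 genes higher (7.69%) and 692 lower (6.75%). Differences were centred, since 50.3% of all tested genes were above 0 and the median difference was 0.00.

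The count rested on single mice. It was 28 without high-fat mouse 1, 16 without high-fat mouse 3, 57 without high-fat mouse 4, 49 without control mouse 1, 24 without control mouse 2, 40 without control mouse 3 and 23 without control mouse 4, and 107 without high-fat mouse 2. With the spread taken from the 8 mice of ZT12 alone, limma called 0 genes, with 1363 at an unadjusted p under 0.05, and all 88 genes had an unadjusted p of 0.0200 or less there. The 88 were chosen on the same differences in the same mice, so those p-values give no separate support. Every one of the 88 kept its direction in each of the 18 alternative settings in which it had a value. Several settings leave the differences as they are, and leaving out 1 mouse cannot reverse groups that do not overlap (78 of the 88). The kept direction is therefore no separate support either. In the 17 settings other than that of the 8 mice alone, 6 genes were called throughout, namely Nop56, Gars, Dpy30, Anpep, Leng8 and 2210016F16Rik.

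**Figure D1:**
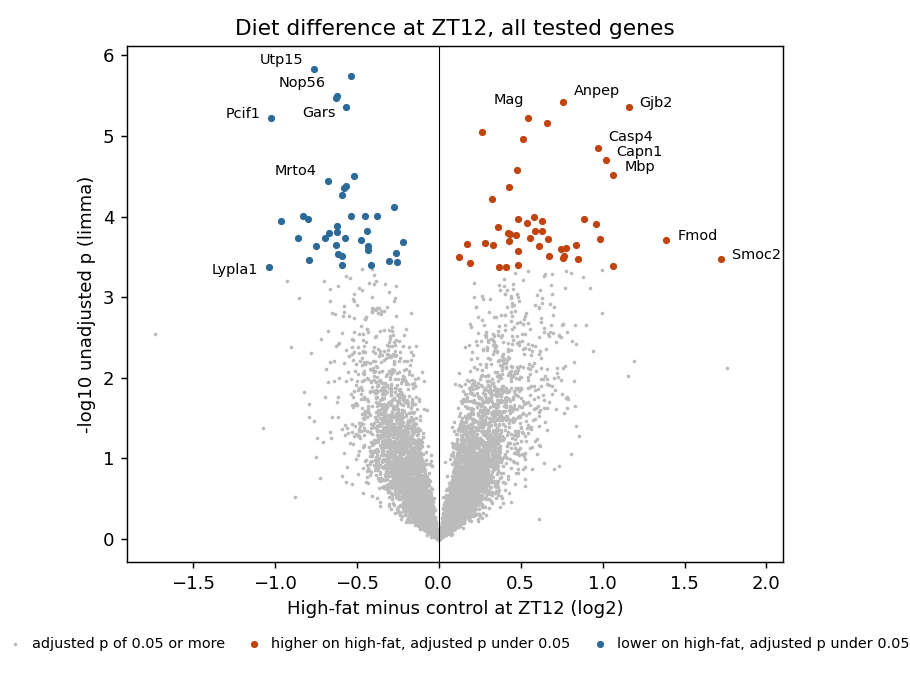
Diet difference of each of the 10258 tested genes at ZT12. The x axis gives high-fat minus control on the log2 scale and the y axis the negative log10 of limma's unadjusted p. Red points are the 48 genes higher and blue points the 40 genes lower on the high-fat diet at an adjusted p under 0.05, and most of them lie within 1 log2 unit of 0.

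**Figure D2:**
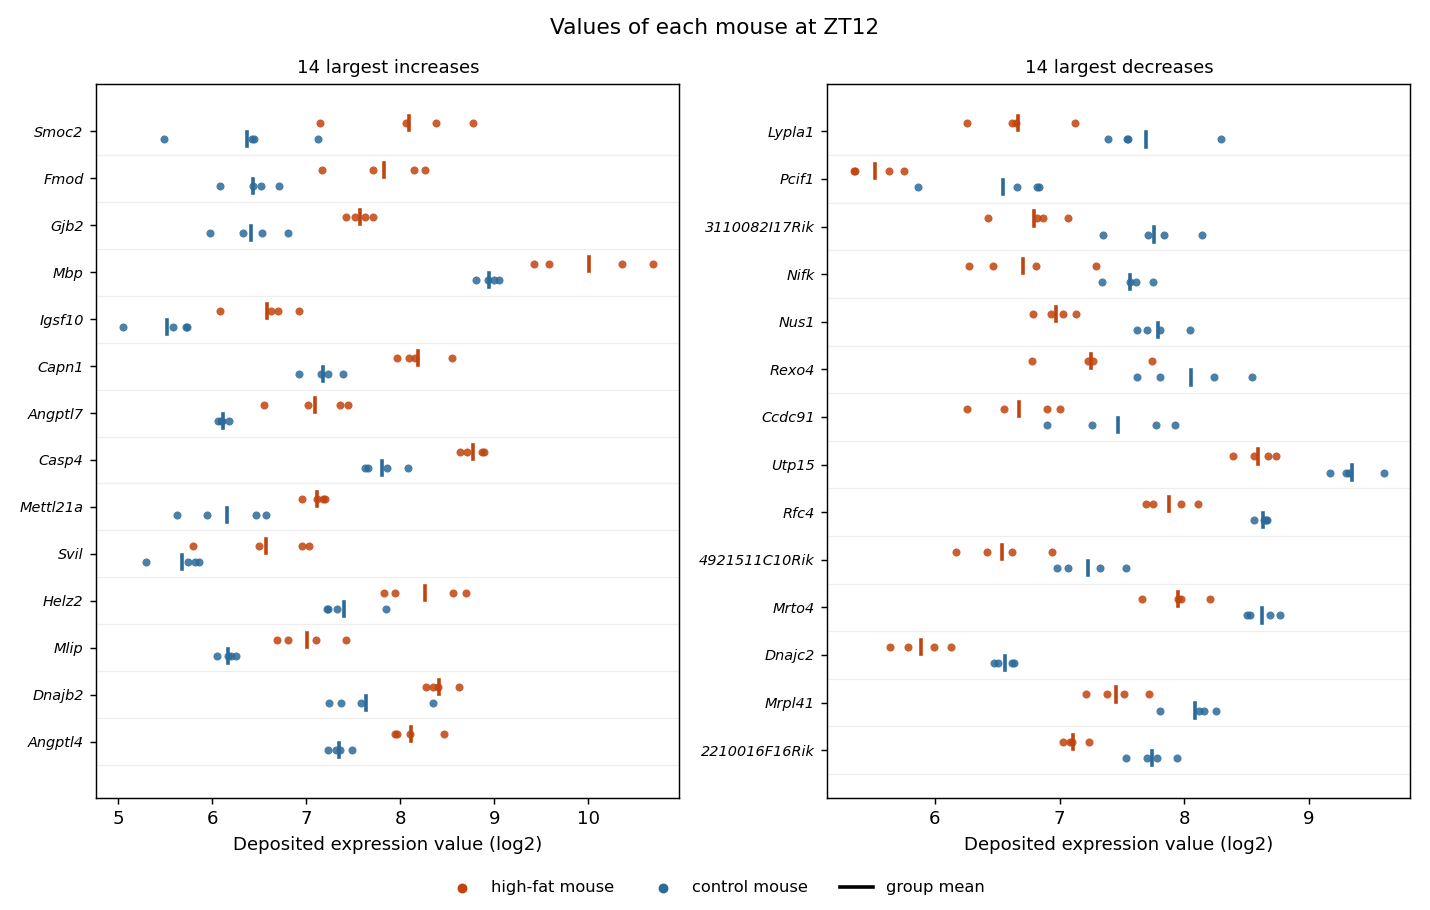
Deposited log2 values of each mouse at ZT12 for the 14 largest increases (left) and the 14 largest decreases (right) among the called genes, with high-fat mice in red above control mice in blue and a bar at each group mean. For most of these genes the groups of 4 are apart, while those of Rexo4, Ccdc91, Svil, Helz2 and Dnajb2 overlap.

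Among the decreases were Nop56, Mrto4 and Utp15, whose products take part in ribosome assembly in the nucleolus. Making a ribosome needs transcription of ribosomal RNA, its cutting and modification by small nucleolar RNA-protein particles, and step-by-step assembly of both subunits with the help of factors that are not part of the finished ribosome. Nop56, a core protein of the particles that methylate ribosomal RNA, had 8.96, 9.63, 9.06 and 9.50 in high-fat mice, against 9.82, 10.06, 9.82 and 9.93 in control mice. All 4 high-fat mice lay under all control mice, and the gene fell by 0.62 on the log2 scale (SE 0.11, limma adjusted p = 0.0064). Utp15, a protein of the complex that processes the small subunit's RNA, had 8.67, 8.74, 8.56 and 8.39 in high-fat mice, against 9.30, 9.32, 9.17 and 9.60 in control mice. Here too the groups were apart, with a difference of -0.76 ± 0.13 (limma adjusted p = 0.0064). Mrto4, which helps to build the stalk of the large subunit, had 7.66, 7.97, 7.95 and 8.21 in high-fat mice, against 8.69, 8.53, 8.51 and 8.77 in control mice. Its groups did not overlap, and it fell by 0.68 (SE 0.14, adjusted p = 0.0206).

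The next 4 decreases are not members of the ribosome biogenesis list, and neither is Utp15. They were put together by their products after their values were seen. Nifk, a nucleolar protein that binds the proliferation antigen Ki-67, had 6.27, 7.29, 6.47 and 6.81 in high-fat mice, against 7.61, 7.34, 7.57 and 7.75 in control mice. High-fat mouse 2 lay just under the lowest control mouse, and the difference was -0.86 ± 0.21 (adjusted p = 0.0368). Rexo4, an exonuclease located in the nucleolus, differed by -0.80 ± 0.19 (adjusted p = 0.0341), with overlapping groups. Its second probe set, an array feature that reads another part of the transcript, had -0.05 ± 0.19. Dnajc2, a chaperone partner at the ribosome, fell by 0.67 with all high-fat mice (5.64 to 6.13) under all control mice (6.48 to 6.63). Its second probe set had -0.13 ± 0.21. Ruvbl1, an ATPase needed to assemble small nucleolar RNA-protein particles and chromatin remodellers, fell by 0.62 (high-fat 7.69 to 7.92, control 8.29 to 8.54). Calls under other settings varied: Nop56 was called in 17 of 17, Utp15 in 16, Mrto4 in 14, Ruvbl1 in 9, Rexo4 in 10, Nifk in 7 and Dnajc2 in 6, the setting of the 8 mice alone left aside.

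Of the 25 tested members of the ribosome biogenesis list, 2 fell (Nop56 and Mrto4), 0 rose and 20 were below 0, with a median difference of -0.15. Over all tested genes 0.39% fell and 49.7% were below 0. Pes1, part of a large-subunit assembly complex, differed by -0.46 ± 0.16 (limma adjusted p = 0.179), Nop16 by -0.53 ± 0.20 (adjusted p = 0.196) and Dkc1, the pseudouridine synthase of small nucleolar particles, by -0.49 ± 0.18 (adjusted p = 0.183), none of which passed. In the opposite direction Wdr12 had 0.25 ± 0.24 and Utp20 0.15 ± 0.13. The number of members below 0 was 19 to 21 over the alternative settings.

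Other lists of the path from RNA to protein had few called members, beside 0.39% of all tested genes that fell and 49.7% below 0. In the splicing list, 2 of 59 members fell and 0 rose, with 44 below 0 and a median of -0.06. Both, Snrpg and Snrpb, encode Sm proteins, which form the ring around spliceosomal RNAs. Snrpb had 10.66, 10.66, 10.70 and 10.73 in high-fat mice, against 10.93, 10.93, 10.90 and 11.01 in control mice, so that the groups were apart by a small step (-0.25 ± 0.06, limma adjusted p = 0.0473). Snrpg differed by -0.30 ± 0.08 (adjusted p = 0.0468), but its second probe set had 0.09 ± 0.14. Among 41 nuclear transport genes 1 fell, Nup153, a nucleoporin of the nuclear basket (-0.61 ± 0.15, adjusted p = 0.0427), with 28 below 0. Its groups overlapped, since high-fat mouse 4 had 8.23 and the lowest control mouse 7.98, and its second probe set had 0.19 ± 0.14.

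Ribosomal protein genes themselves gave 1 call. Mrpl41, a protein of the large mitochondrial subunit, had 7.21, 7.52, 7.72 and 7.38 in high-fat mice, against 8.12, 7.80, 8.16 and 8.25 in control mice. It fell by 0.63 with groups that did not overlap (SE 0.15, limma adjusted p = 0.0374), and a second probe set of the gene read -0.92 ± 0.21. It was the only one of 71 mitochondrial ribosomal genes that passed, 51 of which were below 0 (median -0.10), against 49.7% of all tested genes. Of 66 cytosolic ribosomal protein genes 0 passed, 10 were lower at an unadjusted p under 0.05 and 55 were below 0 (median -0.05). Among 39 translation initiation factors 0 passed, 2 were lower at an unadjusted p under 0.05 and 27 were below 0 (median -0.08). Over all tested genes 6.75% were lower at that p.

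Energy metabolism gave many small negative differences and no call. Oxidative phosphorylation genes encode the respiratory complexes and the ATP synthase of mitochondria. Of 78 tested, 0 passed limma's adjusted threshold and 68 were below 0, with a median of -0.14, and 20 were lower and 0 higher at an unadjusted p under 0.05 (6.75% of all genes were lower and 7.69% higher at that p). Atp5b, the catalytic subunit of ATP synthase, had 10.22, 10.25, 9.90 and 10.09 in high-fat mice, against 10.40, 10.32, 10.31 and 10.51 in control mice. Its groups did not overlap, yet the difference of -0.27 ± 0.08 missed the threshold (adjusted p = 0.0745). Ndufa5 and Ndufa3 of complex I had -0.30 ± 0.09 (adjusted p = 0.117) and -0.46 ± 0.15 (adjusted p = 0.138). Over the alternative settings 62 to 69 members were below 0. All members were read in the same 8 mice, so their number is no number of independent observations.

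Proteasome genes, whose products degrade marked proteins, stood at 0 called of 39, with 26 below 0 and a median of -0.10. At an unadjusted p under 0.05, 8 were lower and 2 higher. Over all tested genes 49.7% were below 0, and 6.75% were lower and 7.69% higher at that p. Psmb7, Psmb5 and Psmd3 had differences of -0.52 ± 0.16, -0.44 ± 0.14 and -0.38 ± 0.12 (limma adjusted p = 0.115, 0.127 and 0.117). Psmb10, a subunit of the immunoproteasome that replaces a standard one, had 0.35 ± 0.12 in the other direction (adjusted p = 0.138).

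**Figure D3:**
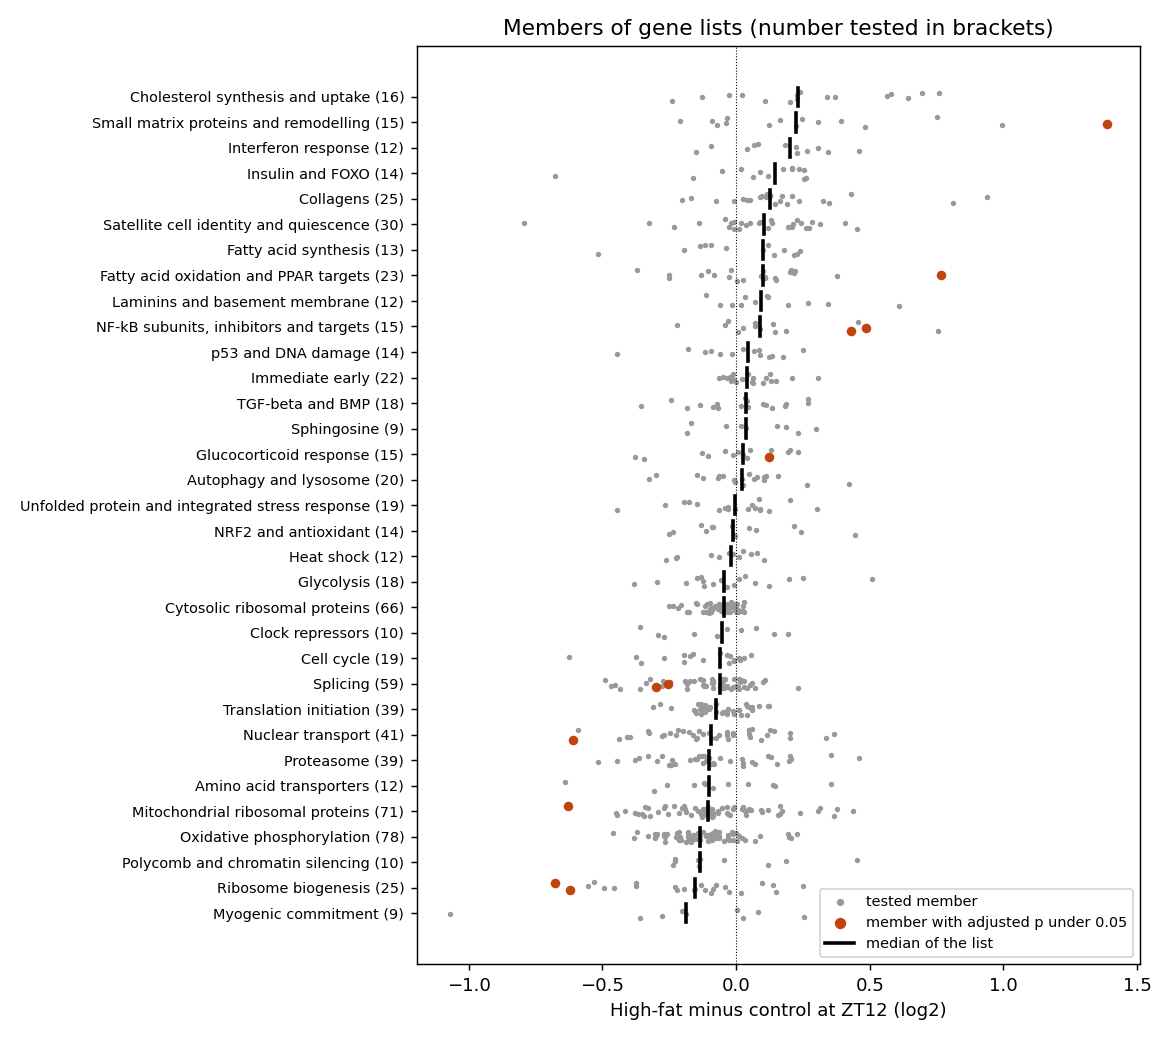
Diet difference at ZT12 of every tested member of each gene list with at least 9 tested members, apart from cell type markers. The x axis gives high-fat minus control on the log2 scale, each point is a gene, red points passed limma's adjusted threshold and black bars mark list medians, which run from -0.19 for myogenic commitment to 0.23 for cholesterol synthesis and uptake.

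The largest decreases outside these lists had varied roles. Lypla1, a thioesterase that removes palmitate from proteins, had 6.26, 6.62, 7.12 and 6.65 in high-fat mice, against 7.55, 7.39, 7.55 and 8.29 in control mice. It was 2.05-fold lower with groups that did not overlap (log2 -1.03 ± 0.27, limma adjusted p = 0.049), and was called in 6 of the 17 settings. Pcif1, the enzyme that methylates the adenosine next to the mRNA cap, had 5.35, 5.36, 5.75 and 5.63 in high-fat mice, against 6.84, 6.66, 5.86 and 6.82 in control mice. Control mouse 3 came close to the high-fat mice, whose values lay under the expression floor of 5.80, and the gene was 2.03-fold lower (log2 -1.02 ± 0.20, adjusted p = 0.00692). Nus1, a subunit of the enzyme that makes dolichol for protein glycosylation, fell by 0.83 (SE 0.19, adjusted p = 0.0341) and its other probe sets read -0.77, -0.69 and -0.25. Rfc4, a subunit of the clamp loader of DNA replication, fell by 0.75 (high-fat 7.69 to 8.11, control 8.56 to 8.66, adjusted p = 0.0374). Ccdc91, a protein of vesicle traffic, differed by -0.79 ± 0.20 (adjusted p = 0.0453), but high-fat mouse 4 (7.01) lay above control mouse 3 (6.90) and its second probe set read 0.20 ± 0.15. The other 3 among the 14 largest, 3110082I17Rik, 4921511C10Rik and 2210016F16Rik, had differences of -0.96, -0.69 and -0.63 (adjusted p = 0.0341, 0.0368 and 0.0064), and their groups did not overlap. The second probe set of 2210016F16Rik read -0.18 ± 0.15.

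Regulators and products of inflammatory signalling were among the increases. NF-kB transcription factors are held inactive by inhibitor proteins, are released by cytokine or microbial signals, and induce their own inhibitors as feedback. Promoters of 2 increased genes that carry matches to the consensus kB site, the 10-base sequence these factors bind, are shown because one encodes an inflammatory caspase and the other a feedback inhibitor. RefSeq (GRCm38.p6) lists 2 starts for each gene, and the sequences are the 250 bases before 1 of them, Casp4 at chr9:5308599-5308848 on the plus strand and Tnfaip3 at chr10:19015411-19015660 on the minus strand, both written 5′ to 3′ on the gene's strand, with bases in a match on either strand in capitals.
Casp4: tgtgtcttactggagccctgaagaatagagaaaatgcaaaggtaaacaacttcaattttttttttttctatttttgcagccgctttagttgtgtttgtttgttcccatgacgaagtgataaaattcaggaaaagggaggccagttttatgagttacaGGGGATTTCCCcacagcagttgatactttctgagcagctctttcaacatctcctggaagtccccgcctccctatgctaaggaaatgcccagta
Tnfaip3: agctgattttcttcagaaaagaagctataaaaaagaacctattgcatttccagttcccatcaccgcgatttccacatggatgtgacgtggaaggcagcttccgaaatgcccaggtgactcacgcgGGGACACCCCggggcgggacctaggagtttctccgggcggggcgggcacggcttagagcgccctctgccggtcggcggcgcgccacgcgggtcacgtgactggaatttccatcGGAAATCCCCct
In Casp4 the capitals hold a pair of overlapping matches that start at -93 and -92 from the start, and in Tnfaip3 matches start at -125 and -12. Counted from the other listed start, those of Casp4 lie at -104 and -103, while the 250 bases before the other start of Tnfaip3 (chr10:19011964-19012213) hold 0 matches. A match was found in 5 of the 40 promoters available for the 48 genes that rose (12.5%: Casp4, Fam114a1, Gjb2, Hic1 and Tnfaip3), in 1 of 32 for genes that fell (3.13%, Nus1), and in 441 of 8282 promoters of tested genes (5.32%). A match describes the letters and shows no binding.

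Casp4, the mouse caspase known as caspase-11 that senses bacterial lipopolysaccharide inside cells, had 8.87, 8.89, 8.64 and 8.71 in high-fat mice, against 7.86, 8.08, 7.65 and 7.63 in control mice. All high-fat mice lay above all control mice, by 1.96-fold (log2 0.97 ± 0.20, limma adjusted p = 0.0111), and the call was lost without control mouse 4. Nfkbiz, a nuclear inhibitor-family protein that selects NF-kB target genes, had 10.92, 11.07, 10.87 and 10.87 in high-fat mice, against 10.45, 10.42, 10.63 and 10.50 in control mice. The groups were apart here too, with a difference of 0.43 ± 0.09 (adjusted p = 0.0214), whose call was lost without control mouse 2 and without control mouse 4. One of its other probe sets read 0.45 ± 0.14 and the remaining one -0.28 ± 0.20. Tnfaip3 (A20), an enzyme that edits ubiquitin and ends NF-kB signalling, had 9.12, 8.77, 9.03 and 8.60 in high-fat mice, against 8.33, 8.31, 8.34 and 8.59 in control mice. High-fat mouse 4 and control mouse 4 lay almost level, and the gene rose by 0.49 (SE 0.13, adjusted p = 0.0489).

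These 2 list members, Nfkbiz and Tnfaip3, were the ones that rose among 15 tested genes of the NF-kB list, while 0 fell, 12 were above 0 and the median was 0.09. Over all tested genes 0.468% rose and 50.3% were above 0. The chemokine genes Cxcl10 and Cxcl1 had 0.75 ± 0.30 (limma adjusted p = 0.227) and 0.46 ± 0.20 (adjusted p = 0.293). Nfkbia, the classic cytoplasmic inhibitor, had -0.04 ± 0.07. Bcl3, another nuclear member of the inhibitor family, was outside the list and was singled out after its values were seen. It had 8.97, 8.52, 8.99 and 8.42 in high-fat mice, against 8.12, 8.12, 8.37 and 8.40 in control mice, with groups that did not overlap (0.47 ± 0.11, adjusted p = 0.0368). Of 12 interferon response genes 0 passed, 2 were higher and 1 lower at an unadjusted p under 0.05, and 10 were above 0 (median 0.20). At that p 7.69% of all tested genes were higher and 6.75% lower. The immune cell marker Ptprc lay under the expression floor in every mouse (3.79 to 3.94 in high-fat mice, 3.76 to 3.82 in control mice). The mean of the 4 immune markers above the floor, of 12 listed, was 7.22 to 7.26 in high-fat mice and 7.10 to 7.54 in control mice. Of these, Cd68 had 8.34 to 9.01 in high-fat mice and 8.79 to 9.30 in control mice (-0.44 ± 0.21, limma adjusted p = 0.337). The others were Cd74 (0.17 ± 0.22), Cd79a (0.05 ± 0.15) and Fcer1g (0.00 ± 0.08). The part of immune cells in these values was not tested.

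Some lipid genes rose as well. Angptl4, a secreted inhibitor of lipoprotein lipase that fatty acids induce through PPAR receptors, had 8.46, 7.94, 7.96 and 8.10 in high-fat mice, against 7.23, 7.32, 7.48 and 7.36 in control mice. Its groups were clearly apart, with a 1.70-fold increase (log2 0.77 ± 0.19, limma adjusted p = 0.0438), and its second probe set read 1.40 ± 0.32. Lipe, the hormone-sensitive lipase, had 7.40, 7.42, 7.18 and 7.30 in high-fat mice, against 6.80, 6.98, 6.96 and 6.92 in control mice. The groups did not overlap (0.41 ± 0.11, adjusted p = 0.049), and leaving out any 1 of the 8 mice ended the call. Lipe is itself a listed adipocyte marker. The mean of the 2 tested adipocyte markers, Lipe and Retn, was 6.82 to 6.94 in high-fat mice and 6.63 to 6.78 in control mice, without overlap, while Retn alone differed by -0.00 ± 0.08. The adipocyte-defining genes Adipoq and Lep lay under the expression floor in every mouse, and the part of adipocytes in the result was not tested. Helz2, a helicase known as a PPAR cofactor, rose by 0.85 (SE 0.22, adjusted p = 0.0453), with high-fat mouse 2 (7.82) below control mouse 4 (7.85).

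Angptl4 was 1 of 23 tested genes of fatty acid oxidation and PPAR targets that rose, and 0 fell. In that list 15 were above 0 and the median was 0.10, while of all tested genes 0.468% rose and 50.3% were above 0. Cpt1a, which imports fatty acids into mitochondria, had 8.40, 8.43, 8.12 and 8.50 in high-fat mice, against 8.91, 8.76, 8.67 and 8.59 in control mice. All high-fat mice lay below all control mice, and the difference of -0.37 ± 0.14 did not pass (limma adjusted p = 0.209). Pdk4, a kinase that restrains glucose oxidation, had 0.20 ± 0.10 (adjusted p = 0.347) and the thioesterase Acot2 0.22 ± 0.08 (adjusted p = 0.205). Among 13 fatty acid synthesis genes 0 passed, 0 were higher and 1 lower at an unadjusted p under 0.05 (7.69% and 6.75% of all tested genes). That gene was Gpam, the first enzyme of triglyceride synthesis (-0.52 ± 0.15, adjusted p = 0.0925).

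Cholesterol genes had the highest median of the lists drawn in the plot of gene lists, 0.23 over 16 tested genes, with 13 above 0. None passed limma's adjusted threshold, and 7 were higher and 0 lower at an unadjusted p under 0.05. Over all tested genes 50.3% were above 0, and 7.69% were higher and 6.75% lower at that p. The list's median was -0.31 at ZT8 and -0.30 at ZT16, where 5 of the 16 genes were above 0. For the mean of the other 5 times it was -0.11, so the positive median does not hold across the day. Idi1, an isomerase of the mevalonate pathway, had 7.71, 7.76, 7.56 and 7.22 in high-fat mice, against 6.78, 6.39, 6.55 and 7.49 in control mice. Control mouse 4 lay among the high-fat mice, and the difference was 0.76 ± 0.23 (adjusted p = 0.105). Stard4, a sterol carrier, had 0.70 ± 0.22 (adjusted p = 0.116), Dhcr7, the last enzyme of cholesterol synthesis, 0.64 ± 0.20 (adjusted p = 0.11), and Srebf2, the transcription factor that drives the pathway, 0.37 ± 0.13 (adjusted p = 0.154).

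Among the largest increases were Smoc2, Fmod, Angptl7 and Igsf10, put together for their matrix or secreted products after their values were seen. Smoc2, a secreted calcium-binding matrix protein used as a marker of fibro-adipogenic cells, had 7.14, 8.06, 8.38 and 8.77 in high-fat mice, against 7.12, 5.48, 6.42 and 6.44 in control mice. High-fat mouse 1 and control mouse 1 were level and the others far apart, with a 3.30-fold increase (log2 1.72 ± 0.44, limma adjusted p = 0.0453), and a second probe set read 0.61 ± 0.24. Fmod, fibromodulin, a collagen-binding proteoglycan of tendon, had 8.26, 7.17, 7.71 and 8.15 in high-fat mice, against 6.71, 6.43, 6.08 and 6.51 in control mice. The groups were apart, by 2.62-fold (log2 1.39 ± 0.34, adjusted p = 0.0368). Angptl7, a secreted protein, had 7.44, 6.55, 7.02 and 7.36 in high-fat mice, against 6.10, 6.09, 6.06 and 6.18 in control mice. Its control values were tight and all lower (0.98 ± 0.24, adjusted p = 0.0368). Igsf10, an immunoglobulin-family protein, rose by 1.06 (SE 0.27, adjusted p = 0.0489), with high-fat values of 6.08 to 6.92 and control values of 5.05 to 5.73. All control values of Igsf10 lay under the floor of 5.80, where differences are compressed. Fmod and Angptl7 were called in 6 of 17 other settings each, Smoc2 in 6 and Igsf10 in 1.

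Markers of fibro-adipogenic cells and tenocytes, whose lists hold Smoc2 and Fmod, are given beside these genes. The mean of the 5 fibro-adipogenic and fibroblast markers above the floor, of 10 listed, was 9.08, 9.19, 9.35 and 9.69 in high-fat mice, against 8.57, 8.47, 8.45 and 8.28 in control mice. Every high-fat mouse lay above every control mouse. Of those 5, 1 rose (Smoc2) and 5 were above 0, with a median of 0.81. The shares over all tested genes were 0.468% and 50.3%. Dcn, decorin, had 0.75 ± 0.23 (limma adjusted p = 0.105), Scara5 0.84 ± 0.40 (adjusted p = 0.323), Col1a1 0.81 ± 0.47 (adjusted p = 0.429) and Cd34, which satellite cells also express, 0.31 ± 0.12 (adjusted p = 0.221). Pdgfra, the receptor that defines fibro-adipogenic cells, stood at 4.39 to 4.49 in high-fat mice and 4.22 to 4.46 in control mice, and Pi16 and Dpp4 were also under the floor in every mouse. Lum, a collagen-binding proteoglycan left out of the test for its low mean over all arrays, had 5.47, 6.09, 5.47 and 5.82 in high-fat mice, against 4.96, 5.30, 4.70 and 4.97 in control mice, without overlap. For tenocytes the mean of the 3 tested markers, of 5 listed, was 7.03 to 7.87 in high-fat mice and 6.46 to 7.07 in control mice, with overlapping groups. One of them, Fmod, rose, while Thbs4 had 0.74 ± 0.47 (adjusted p = 0.482) and Scx, the transcription factor of the tendon lineage, -0.20 ± 0.16 (adjusted p = 0.604). Tnmd, left out of the test because its mean over all 47 arrays was 5.55, had 7.19, 6.52, 6.07 and 5.74 in high-fat mice, against 6.65, 5.94, 5.29 and 5.66 in control mice, and Mkx had at most 4.49 in any mouse. The part of such cells in the matrix increases was not tested.

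Collagens and small matrix proteins as whole lists held 1 call. Of 25 tested collagen genes 0 passed, 3 were higher and 1 lower at an unadjusted p under 0.05, and 21 were above 0 (median 0.13). Col6a3 had 0.94 ± 0.31 (limma adjusted p = 0.138) and Col5a1 0.35 ± 0.11 (adjusted p = 0.131). Fmod was the only one of 15 small matrix and remodelling genes that passed, with 10 above 0 and a median of 0.23. Among all tested genes 0.468% rose and 50.3% were above 0, and 7.69% were higher and 6.75% lower at an unadjusted p under 0.05. Lox, the enzyme that cross-links collagen, had 8.40, 8.60, 7.82 and 7.48 in high-fat mice, against 7.92, 7.31, 6.71 and 6.38 in control mice. These groups overlapped, and the difference was 1.00 ± 0.29 (adjusted p = 0.0894).

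Of the genes listed as Schwann cell markers, Mbp, Mag and Pmp22 rose. Schwann cells wrap the axons of muscle nerves in myelin. Mbp, myelin basic protein, had 9.58, 9.42, 10.69 and 10.36 in high-fat mice, against 8.81, 9.05, 8.93 and 8.99 in control mice. High-fat mice 3 and 4 were far above the rest, and mice 1 and 2 still above all control mice (log2 1.07 ± 0.23, 2.09-fold, limma adjusted p = 0.019). A second probe set read 0.84 ± 0.21. Mag, a myelin adhesion protein, had 6.63, 6.52, 6.78 and 6.72 in high-fat mice, against 6.05, 6.35, 6.09 and 5.98 in control mice, with groups apart by 0.54 ± 0.10 (adjusted p = 0.00692). Pmp22, a peripheral myelin protein that fibroblasts also make, rose by 0.36 (SE 0.09, adjusted p = 0.0365), with high-fat values of 10.68 to 11.06 and control values of 10.34 to 10.64.

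Of 6 tested Schwann markers, 8 having been listed, 3 rose, 0 fell and 6 were above 0 (median 0.35). Over all tested genes 0.468% rose and 50.3% were above 0. Sox10, the transcription factor of the Schwann lineage, had 7.48, 7.59, 8.00 and 7.84 in high-fat mice, against 7.52, 7.55, 7.35 and 7.36 in control mice. High-fat mice 3 and 4, which had the highest Mbp, were also highest here, while mice 1 and 2 overlapped with control mice (0.28 ± 0.13, limma adjusted p = 0.300). Ncmap, another myelin gene, had 7.38, 8.02, 8.83 and 8.63 in high-fat mice, against 8.01, 8.01, 7.79 and 7.70 in control mice. High-fat mouse 1 lay below all control mice and mice 3 and 4 above them (0.34 ± 0.25, adjusted p = 0.568). S100b had 0.10 ± 0.12. The mean of the 6 markers was 7.92 to 8.54 in high-fat mice and 7.72 to 7.88 in control mice. Mbp lost its call without high-fat mouse 3 and without high-fat mouse 4. The part of Schwann cells in these values was not tested.

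**Figure D4:**
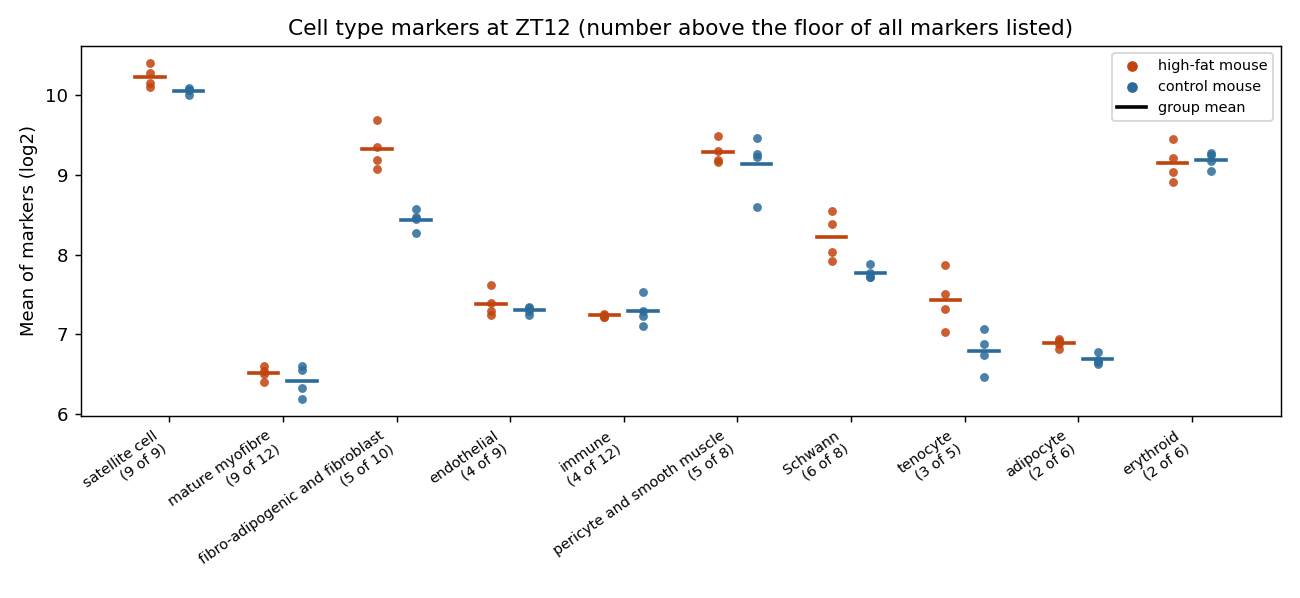
Mean log2 value of the markers above the expression floor for each of 10 cell types in each mouse at ZT12, high-fat mice in red to the left of control mice in blue, with bars at group means. The fibro-adipogenic means are 9.08 to 9.69 in high-fat mice and 8.28 to 8.57 in control mice, while the immune means are 7.22 to 7.26 and 7.10 to 7.54.

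The remaining large increases were of several kinds. Gjb2, connexin 26, a subunit of gap junction channels, had 7.71, 7.42, 7.62 and 7.52 in high-fat mice, against 6.32, 6.52, 6.81 and 5.98 in control mice. The groups were far apart, by 2.23-fold (log2 1.16 ± 0.22, limma adjusted p = 0.0064), and the call held in the 16 of 17 settings in which the gene was tested. Capn1, the large subunit of the calcium-activated protease calpain 1, had 7.96, 8.16, 8.55 and 8.10 in high-fat mice, against 7.39, 7.15, 7.22 and 6.92 in control mice. It rose by 1.02 with no overlap (SE 0.21, adjusted p = 0.0145). Mettl21a, which methylates Hsp70 chaperones, rose by 0.96 (SE 0.23, adjusted p = 0.0357), with high-fat values of 6.95 to 7.20 and control values of 5.62 to 6.57. Its second probe set read 0.17 ± 0.17. Dnajb2, an Hsp70 co-chaperone, rose by 0.78 (SE 0.19, adjusted p = 0.0391), but control mouse 4 (8.35) lay among the high-fat mice (8.27 to 8.62). Svil, an actin-binding protein of muscle and other cells, rose by 0.89 (SE 0.21, adjusted p = 0.0341), with high-fat mouse 1 (5.79) among the control mice (5.29 to 5.86). Its second probe set read 0.12 ± 0.07. Mlip, a lamin-binding protein of muscle, rose by 0.84 (SE 0.21, adjusted p = 0.0374), with high-fat values of 6.69 to 7.42 and control values of 6.04 to 6.25. The mean of the 9 mature myofibre markers above the floor, of 12 listed, was 6.40 to 6.60 in high-fat mice and 6.19 to 6.61 in control mice, so the groups overlapped there.

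Stem cell identity genes did not pass the test at ZT12. Of 30 tested genes of satellite cell identity and quiescence 0 passed, 9 were higher and 3 lower at an unadjusted p under 0.05, and 21 were above 0 (median 0.11). Over all tested genes 7.69% were higher and 6.75% lower at that p, and 50.3% were above 0. Ezh1, a polycomb methyltransferase, came closest and averaged 9.51 ± 0.19 in high-fat mice and 9.05 ± 0.23 in control mice (SD, n = 4 each). One control mouse lay within the high-fat range, and the difference was 0.45 ± 0.12 (limma adjusted p = 0.0671). Calcr, the calcitonin receptor of quiescent satellite cells, had 0.41 ± 0.17 (adjusted p = 0.238). Among 9 commitment genes 0 passed and 2 were lower at an unadjusted p under 0.05. Myog, the factor of terminal differentiation, averaged 5.87 ± 0.74 in high-fat mice and 6.94 ± 0.63 in control mice (SD, n = 4 each), with a wide spread (-1.07 ± 0.51, adjusted p = 0.326). Of 19 cell cycle genes 0 passed and 4 were lower at an unadjusted p under 0.05, among them Mcm7 of the replicative helicase (-0.62 ± 0.20, adjusted p = 0.132).

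The circadian clock, a loop in which Arntl and its partners switch on their own repressors, had no called gene at ZT12. Of 21 tested clock genes 0 passed, 3 had an unadjusted p under 0.05, all of them lower, and 10 were above 0. Over all tested genes 14.4% had an unadjusted p under 0.05, 6.75% were lower at that p, and 50.3% were above 0. Arntl itself had 4.94, 5.48, 6.41 and 7.03 in high-fat mice, against 6.79, 7.64, 6.52 and 6.07 in control mice. The mice of each diet were spread over more than 1 log2 unit and overlapped, and the difference was -0.79 ± 0.33 (limma adjusted p = 0.250). The repressors Bhlhe41 and Cry1 had -0.29 ± 0.11 (adjusted p = 0.209) and -0.27 ± 0.12 (adjusted p = 0.288). Among other repressors Per3 had -0.36 ± 0.27, Per2 -0.16 ± 0.16, Cry2 -0.07 ± 0.20, Ciart -0.03 ± 0.11, Nr1d2 0.02 ± 0.13, Rora, which activates Arntl and was listed with them, 0.08 ± 0.07, Bhlhe40 0.14 ± 0.10 and Per1 0.20 ± 0.14. Of the positive arm Clock had -0.30 ± 0.18, Npas2 0.07 ± 0.10 and Arntl2 0.16 ± 0.09. Of outputs and kinases Nfil3 had -0.06 ± 0.07, Csnk1d -0.02 ± 0.04, Tef -0.00 ± 0.10, Csnk1e 0.04 ± 0.08, Usp2 0.07 ± 0.08, Hlf 0.23 ± 0.15 and Dbp 0.29 ± 0.19. Their standard errors of up to 0.33 leave room for differences that 4 mice per diet could not resolve.

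Hormone-linked lists gave 1 call. Klf9, a factor that glucocorticoids induce, had 11.93, 11.97, 11.90 and 11.93 in high-fat mice, against 11.81, 11.84, 11.80 and 11.78 in control mice. The values were tight and apart, by 0.12 ± 0.03 or 1.09-fold (limma adjusted p = 0.0444), and leaving out any 1 of the 8 mice ended the call. It was 1 of 15 glucocorticoid response genes, of which 9 were above 0 (median 0.03), against 50.3% of all tested genes. The members with the next smallest limma p were Cebpd (0.23 ± 0.08, adjusted p = 0.173), Sgk1 (-0.13 ± 0.06, adjusted p = 0.336) and Pdk4 (0.20 ± 0.10, adjusted p = 0.347). Named outside that order, Fkbp5, Tsc22d3 and Ddit4, which glucocorticoids also induce, had -0.11 ± 0.18, -0.34 ± 0.18 and -0.38 ± 0.23 (adjusted p = 0.841, 0.376 and 0.458). In the insulin and FOXO list 0 of 14 passed and 11 were above 0 (median 0.15), against 50.3% of all tested genes. The member with the smallest limma p went the other way, Sesn3 with -0.68 ± 0.21 (adjusted p = 0.114). It was the only 1 lower at an unadjusted p under 0.05, and 0 were higher.

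The diet difference at ZT12 was then set against the mean diet difference at the other 5 times, which rest on other mice. It departed from that mean for 11 of 10258 genes (0.107%, limma adjusted p under 0.05), 4 above and 7 below, while 1095 genes (10.7%) had an unadjusted p under 0.05. Of the 11, 8 were also called at ZT12. This count too rested on single mice: it was 7 without high-fat mouse 2, 1 without high-fat mouse 3, 6 without control mouse 1, 18 without control mouse 3 and 0 without control mouse 4.

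Pcif1 showed the clearest departure. It was -1.02 ± 0.20 at ZT12 and averaged 0.20 ± 0.09 at the other times, a gap of -1.23 ± 0.21 (limma adjusted p = 0.0134). At no other time did its diet difference pass the test, the nearest being 0.59 ± 0.20 at ZT0 (adjusted p = 0.0813). Utp15 had a gap of -0.75 ± 0.15 (adjusted p = 0.0300), with 0.01 ± 0.13 at ZT4, 0.40 ± 0.13 at ZT20 and -0.41 ± 0.13 at ZT0. Pde3b, a phosphodiesterase through which insulin lowers cyclic AMP, was -0.45 ± 0.10 at ZT12 and averaged 0.14 ± 0.05 elsewhere (gap -0.59 ± 0.11, adjusted p = 0.0300). Smarce1, a subunit of BAF chromatin remodellers, had a gap of -0.65 ± 0.13 (adjusted p = 0.0308), although its second probe set read 0.02 ± 0.15 at ZT12.

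Cpt1a and Scd1 departed from the other times without passing the test at ZT12 itself. Cpt1a had a diet difference of -0.33 ± 0.14 at ZT0, 0.23 ± 0.14 at ZT4, 0.64 ± 0.14 at ZT8, -0.37 ± 0.14 at ZT12, 0.99 ± 0.15 at ZT16 and 0.33 ± 0.14 at ZT20. Its gap to the mean of the other times was -0.74 ± 0.16 (limma adjusted p = 0.0308). The group means at ZT12 were 8.36 ± 0.17 in high-fat mice and 8.73 ± 0.14 in control mice, against 9.43 ± 0.14 (SD, n = 3) and 8.44 ± 0.21 (SD, n = 4) for the same diets at ZT16. Scd1, which desaturates fatty acids, was lower at ZT4 (-0.42 ± 0.08, adjusted p = 0.00596) and ZT8 (-0.53 ± 0.08, adjusted p = 0.000231) and had 0.14 ± 0.08 at ZT12 (adjusted p = 0.400), a gap of 0.40 ± 0.08 (adjusted p = 0.0320).

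Above the other times stood Anpep, aminopeptidase N, a surface peptidase. It had 7.43, 7.58, 7.76 and 7.64 in high-fat mice at ZT12, against 6.71, 6.68, 7.11 and 6.88 in control mice. The groups did not overlap (0.76 ± 0.14, limma adjusted p = 0.0064), and the gap to the other times was 0.75 ± 0.16 (adjusted p = 0.0308). It also rose at ZT16, by 0.53 ± 0.15 (adjusted p = 0.0172), so the departure is one from the mean of 5 times and not from each of them. Mag had 0.54 ± 0.10 at ZT12, 0.41 ± 0.11 at ZT16 (adjusted p = 0.0124) and -0.28 ± 0.10 at ZT0 (adjusted p = 0.123), and its gap was 0.56 ± 0.11 (adjusted p = 0.0308). Ccni, a cyclin-like protein, had 0.51 ± 0.10 at ZT12 and a gap of 0.54 ± 0.11 (adjusted p = 0.0308). Its further probe sets read 0.25 ± 0.11 and 0.07 ± 0.09 at ZT12. The last 2 of the 11 were 2210016F16Rik (gap -0.58 ± 0.13) and 4930592A05Rik (gap -0.44 ± 0.10), both with an adjusted p of 0.0497. At ZT12 itself 4930592A05Rik was not called, with means of 5.85 in high-fat and 6.14 in control mice, near the floor.

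**Figure D5:**
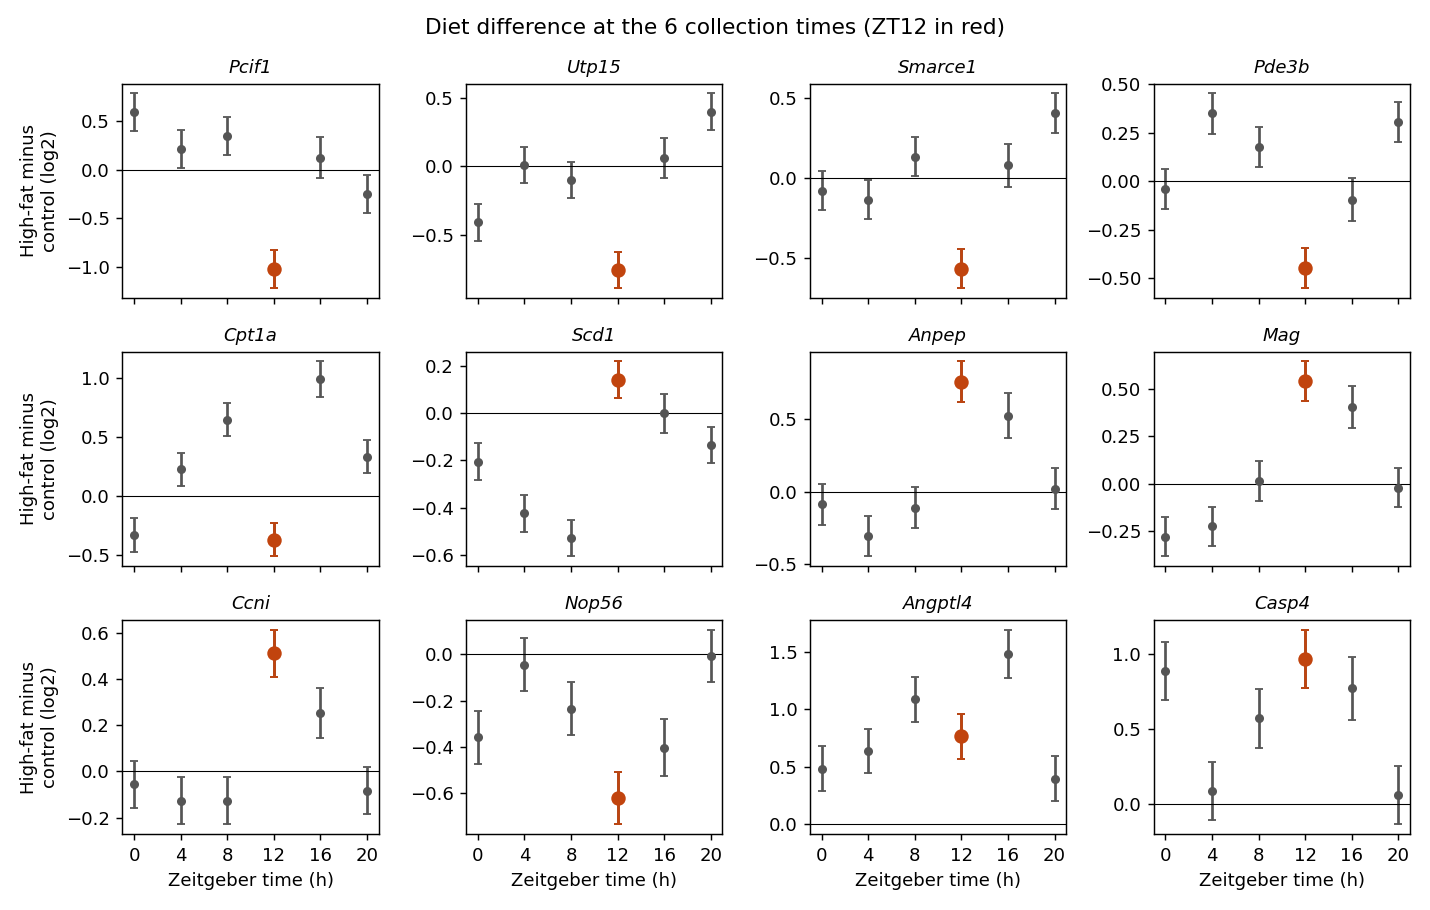
Diet difference (high-fat minus control, log2) at the 6 collection times for 9 genes whose difference at ZT12 departed from the other times, and for Nop56, Angptl4 and Casp4, whose difference did not. Points are differences of group means, bars are limma's standard errors and ZT12 is in red, and the vertical scale differs between panels.

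Some of the ZT12 changes recurred at other times. Of the 88 genes, 36 were also called with the same sign at another time and 52 were not. The matching share of all tested genes called at another time was not counted. ZT16, at which 1360 genes were called (13.3% of those tested), shared 32 with ZT12, 36.4% of the ZT12 calls and 2.35% of the ZT16 calls, 30 of them with the same sign. Both exceptions at ZT16 went against their ZT12 direction, Dnajb2 with -0.63 ± 0.21 (limma adjusted p = 0.0369) and Mrpl41 with 0.49 ± 0.17 (adjusted p = 0.0464). ZT0, with 365 calls (3.56%), shared 9 (10.2% and 2.47%), all with the same sign. ZT8, with 183 calls (1.78%), shared 4 (4.55% and 2.19%). ZT4, with 32 calls (0.312%), and ZT20, with 84 calls (0.819%), shared 1 each. No mouse belongs to 2 times, so the overlaps rest on separate animals, collected on separate days. All times share 1 estimate of each gene's spread in the fit, so their calls are not fully independent.

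The direction of the 88 was the same at ZT16 for 66, at ZT0 for 67, at ZT8 for 62, at ZT20 for 50 and at ZT4 for 37. Over all tested genes the share with the ZT12 direction was 59.6% at ZT16, 58.2% at ZT0, 54.3% at ZT8, 51.9% at ZT20 and 46.9% at ZT4. Of the 88, 10 genes had the same sign at all 6 times, against 6.14% of all tested genes. Angptl4 was above 0 at each time, with 1.48 ± 0.21 at ZT16 (limma adjusted p = 5.5e-06) and 1.09 ± 0.19 at ZT8 (adjusted p = 0.00259). Casp4 also rose at ZT0 (0.89 ± 0.20, adjusted p = 0.00842) and ZT16 (0.77 ± 0.21, adjusted p = 0.0117), and Tnfaip3 at ZT0, ZT4 and ZT16, with its highest difference of 1.51 ± 0.14 at ZT16 (adjusted p = 6.61e-10). Nop56 also fell at ZT16, by 0.40 (SE 0.12, adjusted p = 0.0245).

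Second probe sets gave a check within the same arrays. For 36 of the 88 genes the array held 63 further probe sets, of which 53 had the sign of the reported one and 10 the opposite, against 61.7% with the same sign over all further probe sets. Those with the same sign had an unadjusted limma p under 0.05 in 23 cases, and those with the opposite sign in 0. For 26 of the 36 genes every further probe set had the same sign. The same sign was not always the same size: Svil read 0.12 ± 0.07 against 0.89, and Angptl4 1.40 ± 0.32 against 0.77. Smarce1, Snrpg, Nup153, Ccdc91, Snx27, Zfp451, Plcg1, Atf7, and 1 probe set each of Nfkbiz and Mark1 made up the 10 of opposite sign, so the calls of all but Nfkbiz and Mark1 rest on 1 reading of the transcript. The probe sets of a gene share its RNA extract and are not replicates.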

How the data were processed

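RNA of muscle stem cells was measured on 1 Affymetrix array per mouse. The authors deposited a table of log2 values with 1 row per probe set. RMA is named in the submitters' processing notes, without version or settings. RMA sets the arrays to a common distribution, so a difference is one against most other genes, and it shrinks near background. Arrays have no read depth, and the number of mice limits the precision.

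Probe sets with exactly 1 symbol in the platform annotation (28898 of 45141) were kept, 104 control probe sets were left out, and symbols were updated through gene identifiers (28689 matched to GRCm38.p6). Each of 17097 genes was represented by its probe set of highest mean, and genes under the 40th percentile of means (5.80) were left out, leaving 10258.

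All 47 mice entered 1 fit of 12 group means in limma 3.58.1 under R 4.3.3 (lmFit, eBayes with intensity trend, 35 residual degrees of freedom), two-sided, with Benjamini-Hochberg adjustment over 10258 genes and a threshold of 0.05. Contrasts were high-fat minus control at ZT12, and that difference minus its mean over the other 5 times. Both contrasts were also run on simulated arrays with the mean and fitted spread of each gene and independent noise. At ZT12, 53% of added differences of 0.5 and 93% of those of 1 (log2) were recovered, with 8 false calls. Against the other times these were 45% and 92%, with 8 false calls. Variation shared between genes was not simulated. Values after ± are limma's standard errors unless SD is named, with 4 mice per group. Named genes are the 14 largest increases and decreases, the 8 smallest p-values against the other times, up to 4 members per list and the clock list, and exceptions are marked. The 46 gene lists, like the comparison itself, were chosen with earlier results of these data known. Overlap means that the ranges of the groups of 4 cross. Promoters were searched on both strands for the consensus kB site. Alternatives were other filters, scalings and probe set rules, no trend, array weights, the replicate number as a block, fewer times, and leaving out each mouse of ZT12.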

Additional observations from a re-analysis of the deposited data

Results flagged for a closer look

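Within groups of 4 mice, 1 mouse stood apart from the other 3 by Dixon's test in 5 of 176 groups looked at, those of the 88 called genes, where chance gives about 1 in 20. Leng8 had 11.2 in 1 high-fat mouse, against 3 others near 11.15. Anp32b, a nuclear histone chaperone, had 10.8 in 1 high-fat mouse, against 10.67 for the nearest. Cd302, a lectin-like receptor, had 8.32 in 1 high-fat mouse, against 8.84 for the nearest, and 9.01 in 1 control mouse, against 9.22. Tnfaip3 had 8.59 in control mouse 4, against 8.34 for the nearest.

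The diet difference at ZT12 departed from the mean of the other times for 11 genes by limma's test of that difference (adjusted p under 0.05). Below the other times were Pcif1 by -1.23, Utp15 by -0.75, Cpt1a by -0.74, Smarce1 by -0.65, Pde3b by -0.59, 2210016F16Rik by -0.58 and 4930592A05Rik by -0.44. Above them were Anpep by 0.75, Mag by 0.56, Ccni by 0.54 and Scd1 by 0.40.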

How the results depend on the processing

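The count of genes changed at ZT12, 88 as reported, was 0 with only the 8 mice of ZT12, 22 without the ZT16 mice, 57 with no filter on low values and 16 to 107 with 1 mouse of ZT12 left out. It was 77 with a filter at the 60th percentile, 109 with cyclic loess, 90 with quantile scaling over the tested genes, 77 with no intensity trend, 115 with array weights and 107 with the mean of all probe sets. Quantile scaling gave 41 genes higher and 49 lower, against 48 and 40 as reported, while the median of all genes moved by -0.01. The count of genes that departed from the other times, 11 as reported, was 7 with a filter at the 60th percentile, 18 with array weights, 6 with the mean of all probe sets and 0 to 18 with 1 mouse left out. It was 10 without the ZT16 mice, 10 with no filter, 11 with cyclic loess, 14 with quantile scaling and 10 with no intensity trend. Why the counts moved was not tested.

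With the replicate number as a block, 35 genes were called at ZT12 and 0 departed from the other times. The numbers did not pair the mice: deviations of same-numbered mice at ZT12 correlated at -0.00, 0.02, -0.02 and 0.03. No mouse correlated best with the mouse of its own number on the other diet. Over all alternatives, 810 of 1562 values of the 88 genes stayed past the threshold, 752 did not and 0 changed sign. The kept sign was largely fixed in advance, since the settings reuse the same mice. Of 2960 values of 166 named genes that were not called, 19 values of 13 genes passed. Genes near the floor of 5.80 have compressed differences, and 4 mice per diet limit what could be resolved.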

Other observations

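Several called genes outside the lists act on chromatin or RNA in the nucleus. They were chosen after their values were seen, so they describe no theme. Dpy30, a core subunit of the complexes that methylate histone H3 at active genes, averaged 8.30 ± 0.10 in high-fat mice and 8.83 ± 0.16 in control mice (SD, n = 4 each). The groups were apart, and the gene fell by 0.53 (SE 0.09, limma adjusted p = 0.0064). Mettl16, an RNA methyltransferase, fell by 0.59 (SE 0.15, adjusted p = 0.0489). Rtca, an RNA phosphate cyclase, fell by 0.53 (SE 0.12, adjusted p = 0.0341). Pabpn1, the nuclear poly(A)-binding protein, rose by 0.17 (SE 0.04, adjusted p = 0.0374), with high-fat values of 11.12 to 11.22 and control values of 10.98 to 11.05. Leng8 rose by 0.26 (SE 0.05, adjusted p = 0.00836).

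A further 6 called genes outside the lists encode signalling proteins or transcription factors, and were also chosen after their values were seen. Gnaq, the alpha subunit of a G protein that activates phospholipase C, rose by 0.28 (SE 0.07, limma adjusted p = 0.0374), and all 6 of its further probe sets were above 0. Plcg1, a phospholipase C isoform, rose by 0.37 (SE 0.10, adjusted p = 0.049), while its second probe set read -0.21 ± 0.12. Gli3 and Hic1, a Hedgehog-pathway factor and a transcriptional repressor, rose by 0.43 and 0.59 (adjusted p = 0.0370 and 0.0368). The second probe set of Gli3 read 0.04 ± 0.11. Il4ra, the interleukin-4 receptor alpha chain, fell by 0.42 (SE 0.11, adjusted p = 0.0489), with high-fat mouse 2 (8.12) inside the control range of 7.99 to 8.32. Dvl2, a transducer of Wnt signals, fell by 0.52 (SE 0.11, adjusted p = 0.0190), with high-fat values of 6.15 to 6.50 and control values of 6.68 to 7.00.

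Aminoacyl-tRNA synthetases load amino acids onto their tRNAs for translation, and the cytosolic ones were gathered after values were seen. Gars, for glycine, averaged 8.47 ± 0.14 in high-fat mice and 9.04 ± 0.03 in control mice (SD, n = 4 each). All high-fat mice lay under a tight control group, and the gene fell by 0.56 (SE 0.11, limma adjusted p = 0.0064). Vars, for valine, fell by 0.43 (SE 0.11, adjusted p = 0.0374), with high-fat values of 7.40 to 7.56 and control values of 7.83 to 8.10. Of 13 tested cytosolic synthetases 2 fell, against 0.39% of all tested genes. Of the 13, 12 were below 0, against 49.7% of all tested genes, and the median difference was -0.18. Kars was the exception, with 0.15 ± 0.19.

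Probe sets whose names mark possible cross-hybridisation (suffix _x_ or _s_) stood for 15 of the 88 called genes, 17.0%, against 9.16% of all tested genes.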
